A study of Mus musculus with 12 samples.

Results

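The 10 genes described here encode the antibody chains, the joining and transport proteins and the plasma cell proteins with which the gut makes and exports immunoglobulin A (IgA). They were taken by gene symbol from the table of read counts: Igha, Ighm, Igkc, Ighg2b, Jchain, Pigr, Mzb1, Xbp1, Tnfrsf17 and Derl3. Each symbol matched 1 of the 54532 genes in the table, and all 10 were among the 16904 genes that passed the filter on low counts. RNA-Seq was carried out on the colon of male wild-type C57BL/6J mice, 5 weeks old, in 4 groups of 3 libraries. DSS, dextran sodium sulfate, damages the colonic epithelium and is used to induce colitis. Control mice were not given DSS, and the model group was given DSS alone. The Rhy group received DSS and rhynchophylline, an alkaloid of the plant Uncaria rhynchophylla, and the DXM group received DSS and 4 mg/kg of dexamethasone, a glucocorticoid. The protocol lists Rhy at 2, 4 and 8 mg/kg, and the dose given to the sequenced mice is not stated. The comparisons ask how DSS and the drugs given with it altered colonic gene expression. The labels do not say whether each library came from 1 mouse, so p-values measure the spread between these libraries.

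Most plasma cells of the gut lie in the connective tissue under the epithelium and secrete IgA. In these cells 2 IgA molecules are joined by the J chain into a dimer, which the polymeric immunoglobulin receptor (pIgR) carries through epithelial cells into the lumen. Plasma cells depend on an enlarged endoplasmic reticulum (ER), whose folding and quality control genes are driven by the transcription factor XBP1. B cells that have not yet switched their heavy chain gene carry IgM and IgD and gather in lymphoid follicles of the colon wall.

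The 3 heavy chain genes lie in 1 cluster on the minus strand of chromosome 12. In the count table, which uses mm10 coordinates, Igha spans chr12:113254830-113260236, Ighg2b chr12:113302965-113307933 and Ighm chr12:113418558-113422730. Igkc, the kappa light chain constant gene, lies at chr6:70726435-70726966. The last 63 coding bases of the secreted heavy chains, stop codon included, are shown because they encode the tail to which the J chain attaches in IgA and IgM. They were read from the GENCODE M21 transcripts on GRCm38, and capitals mark the cysteine codon next to the last codon before the stop.
Igha, chr12:113258768-113258830, minus strand: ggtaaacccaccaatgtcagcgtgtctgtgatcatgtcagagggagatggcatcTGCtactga
Ighm, chr12:113420867-113420929, minus strand: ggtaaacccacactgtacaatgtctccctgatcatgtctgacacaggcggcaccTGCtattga
Ighg2b, chr12:113306389-113306451, minus strand: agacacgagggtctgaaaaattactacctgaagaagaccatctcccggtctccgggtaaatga
Igha and Ighm were identical at 44 of these 63 bases (69.8%). Ighg2b carried no cysteine codon there and was identical to Igha at 15 bases (23.8%) and to Ighm at 28 (44.4%). The bases were compared position by position from the stop codon, without alignment, so these values do not measure how alike related segments are. The counts are per gene, so secreted and membrane forms of a heavy chain cannot be told apart. Reads of the closely related Ighg2b and Ighg2c may have been divided between them by the counting. Mzb1 shares exon sequence with a second annotated gene on the same strand, and its counts may be affected by it.

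Total counts were 14346478 to 17749716 per library. Model 1 and model 2 were nearly identical, with an edgeR dispersion (variance beyond counting noise) of 0.00201 between them and of 0.0604 to 0.351 in the remaining 65 pairs. Their variance was still 1.91 times that of Poisson counts, and they were kept as 2 libraries. If they are not independent, p-values are too small and intervals too narrow in comparisons with the model group. Hoxb13, a gene of the distal colon, was under 5 CPM in control 3, model 3 and Rhy 1, and 72 to 316 CPM in the other 9 libraries. The 8 colonocyte markers were detected in every library, with summed levels of 9547 to 34373 CPM. All 8 had lower fitted values in model than in control (median log2 fold change -0.52) and over all DSS libraries (median -0.52), with 4 at an unadjusted p under 0.05 and 0 past the adjusted threshold in each. Of all genes, 4.51% were lower at an unadjusted p under 0.05 in model against control and 9.19% over all DSS libraries. Of 8 pancreatic acinar markers, 7 were at 0.24 CPM or less throughout, and Cela1 reached 288 CPM, with a log2 fold change of 1.17 over all DSS libraries against control (SE 0.35, adjusted p = 0.153). These libraries are named below beside each result that rests on them.

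Levels in single libraries are given as CPM, read counts scaled to library size by TMM, and levels of different genes are compared only as FPKM, which divides by gene length. On the FPKM scale Igkc was above Igha in 12 of 12 libraries and was the highest of the 10 genes in 9. In the other 3 libraries, model 1, model 2 and Rhy 1, Pigr was the highest. Pigr exceeded Igha in 8 of 12 libraries on this scale. Tnfrsf17 or Derl3 was the lowest in 11 libraries. The genes differed in their spread over the 12 libraries. The highest library exceeded the lowest 38.7 times for Igha, 61.0 times for Igkc and 417 times for Ighg2b in CPM, but 3.24 times for Xbp1 and 2.40 times for Pigr.

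**Figure D1:**
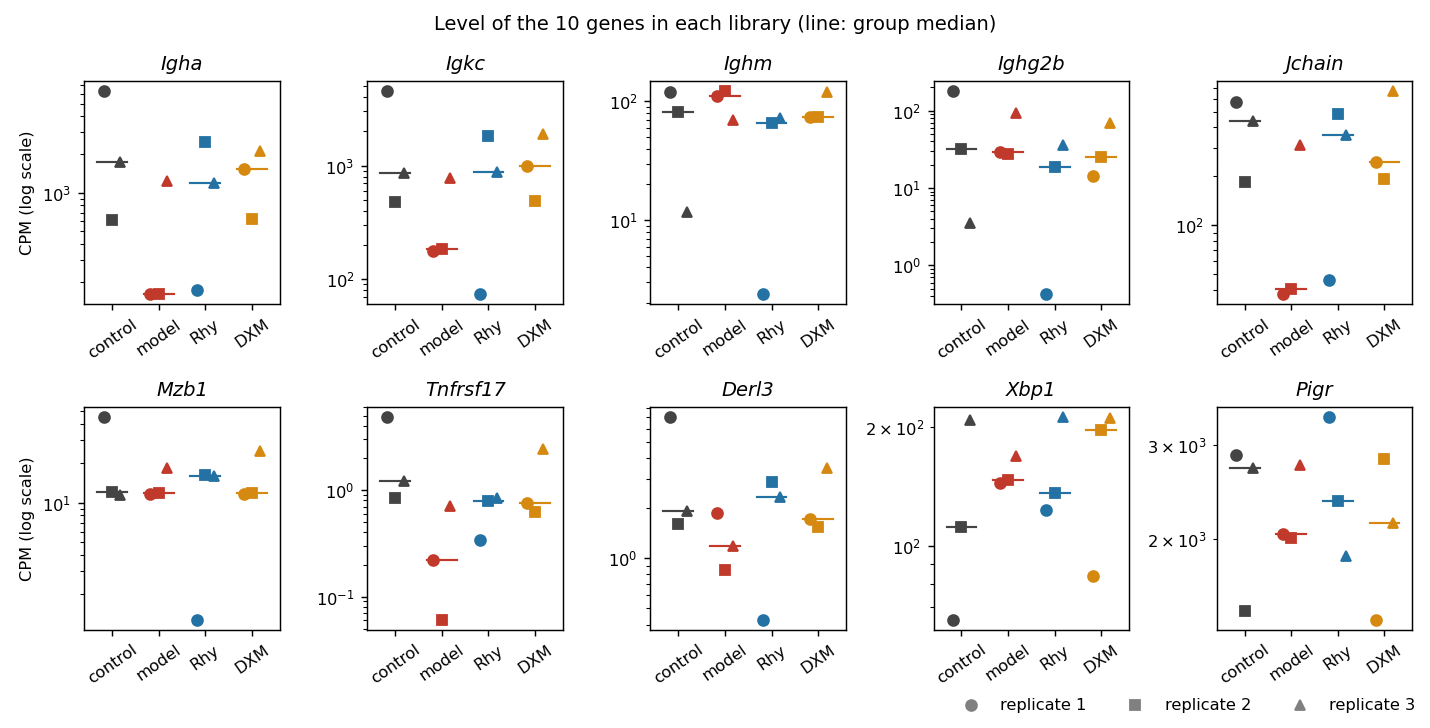
Level of each gene (CPM, log scale) in the 3 libraries of each group, with the replicate shown by the symbol and the group median by the line. Model 1, model 2 and Rhy 1 lie far below the other libraries for Igha, Igkc and Jchain, while Pigr and Xbp1 stay within a narrow range.

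Igha, the heavy chain constant gene of IgA, measured 6265, 617 and 1741 CPM in control 1, 2 and 3. In the model group it measured 162, 163 and 1232 CPM. In the Rhy group the values were 174, 2485 and 1186 CPM, and in the DXM group 1544, 630.3 and 2136 CPM. Model 1, model 2 and Rhy 1 were the lowest libraries and control 1 the highest. The third model library lay inside the control range, so that model and control overlapped. The fitted level was 5.54 times lower in the model group than in control, a log2 fold change of -2.47 (SE 1.10, 95% interval -4.87 to -0.07, adjusted p = 0.516 in edgeR). The value was -1.18 without control 1 and -4.18 without model 3. Igha thus did not pass the threshold, and in bulk tissue fewer IgA cells and less IgA RNA per cell cannot be told apart.

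Igkc, which supplies the light chain of most mouse antibodies, followed the same libraries. It measured 4526, 481 and 861 CPM in control, 176, 183 and 779 CPM across model libraries, 74.1, 1817 and 875 CPM across Rhy libraries and 992, 488 and 1887 CPM across DXM libraries. Rhy 1 was the lowest library, followed by model 1 and model 2. Model against control gave a log2 fold change of -2.37 (SE 1.10, adjusted p = 0.52), and it was -0.82 without control 1.

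Jchain, whose product joins IgA into dimers, measured 571, 183 and 435 CPM in control and 37.8, 40.6 and 311 CPM across model libraries. It measured 45.8, 483 and 359.7 CPM across Rhy libraries and 245, 191 and 668 CPM across DXM libraries. The same 3 libraries were lowest, and the highest value was in DXM 3 rather than in control 1. The fitted difference between model and control was -1.61 on the log2 scale (SE 0.94, adjusted p = 0.601), and -3.38 without model 3.

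Ighm, the heavy chain gene of IgM, showed another order of libraries. Control 1, 2 and 3 measured 120.4, 82.3 and 11.6 CPM, and the model libraries 112, 122 and 70.1 CPM. The Rhy libraries measured 2.40, 65.4 and 72.5 CPM, and the DXM libraries 74.3, 73.7 and 120.2 CPM. Rhy 1 and control 3 were the lowest, and model 1 and model 2, which were low in Igha, were among the 4 highest. The groups overlapped, with a log2 fold change of 0.50 (SE 0.90, adjusted p = 0.885) between model and control.

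Ighg2b, an IgG heavy chain gene, measured 178, 31.6 and 3.57 CPM in control and 28.8, 27.6 and 91.9 CPM across model libraries. It measured 0.428, 18.4 and 36.2 CPM across Rhy libraries and 14.3, 25.3 and 69.2 CPM across DXM libraries. As for Ighm, Rhy 1 and control 3 were the lowest. Between model and control it differed by -0.52 on the log2 scale (SE 1.24, adjusted p = 0.915), and it turned to 1.5 without control 1.

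These orders gave the libraries different heavy chain make-ups. Igha took 92.3%, 72.7% and 98.5% of the heavy chain constant gene FPKM in control 1, 2 and 3. It took 40.4% and 38.1% in model 1 and model 2 and 81.0% in model 3. It took 86.4% to 96.1% in the Rhy group and 77.2% to 87.5% in the DXM group. Model 1 and model 2 were thus the lowest libraries, and Ighm took 39.4% and 40.4% there, against 0.931% to 13.7% in the other 10. Rhy 1 was low in the amount of Igha but not in its share, since Ighm and Ighd were also near 0 in it. The share rests on FPKM, whose gene length for Igha counts the exons of the membrane form too. With the counts themselves, the Igha share in model 1 and model 2 was 47.5% and 45.3%. Igkc took 85.9% to 97.1% of the light chain constant gene FPKM in the 12 libraries. The low Igha share in the model group rests on the near-identical model 1 and model 2, and no test was made.

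**Figure D2:**
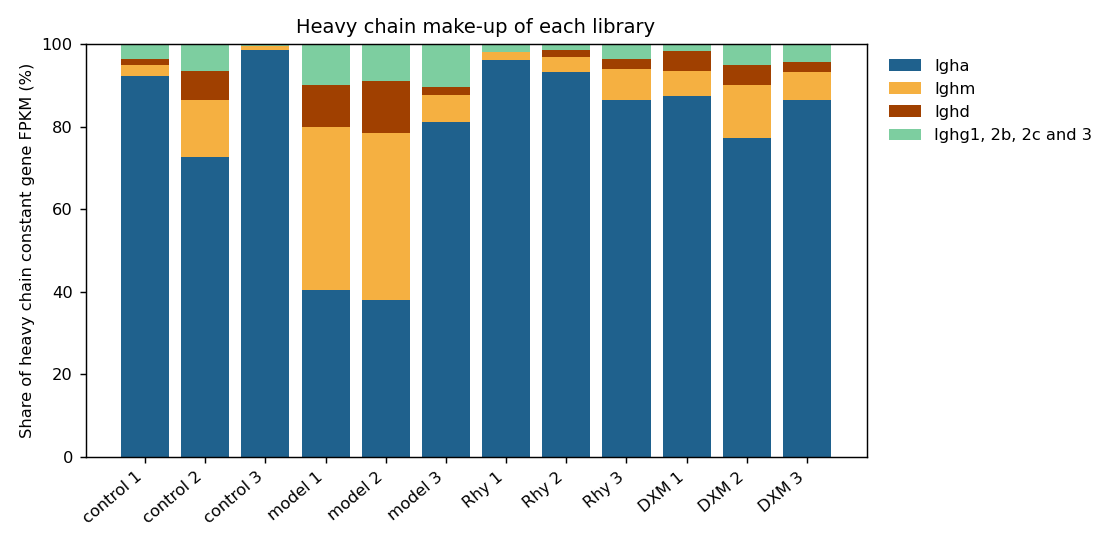
Share of the heavy chain constant gene FPKM (%) that Igha, Ighm, Ighd and the 4 Ighg genes took in each of the 12 libraries. Igha holds 72.7% or more of each bar except in model 1 and model 2, where it and Ighm are between 38.1% and 40.4% each.

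The B cell markers followed Ighm more closely than Igha. The summed level of 10 B cell markers was 134 to 177 CPM in control 1 and 2 and 7.68 CPM in control 3. It was 99.7 to 147 CPM across model libraries and 128 to 158 CPM across DXM libraries. In the Rhy group it was 84.2 and 99.0 CPM in Rhy 2 and Rhy 3 and 1.71 CPM in Rhy 1. Rhy 1 and control 3 were thus nearly without B cell RNA. In Rhy 1 the defining markers Ms4a1 and Pax5 were at 0. In control 3 Ms4a1 was at 0.933 CPM, while Igha stood at 1741 CPM. Over the 12 libraries the mean of the B cell markers had a Pearson r of 0.98 with Ighm, 0.88 with Ighg2b and 0.25 with Igha, as a description of libraries that include the near-identical model pair. Control 3 and Rhy 1 lay far below the others in the B cell markers, Ighm and Ighg2b. The r values were not computed without these libraries. Control 3 and Rhy 1 were also low in Hoxb13, but model 3, with 1.49 CPM of Hoxb13, had 99.7 CPM of B cell markers. The part of B cell content or of the sampled position in the group differences was not tested.

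**Figure D3:**
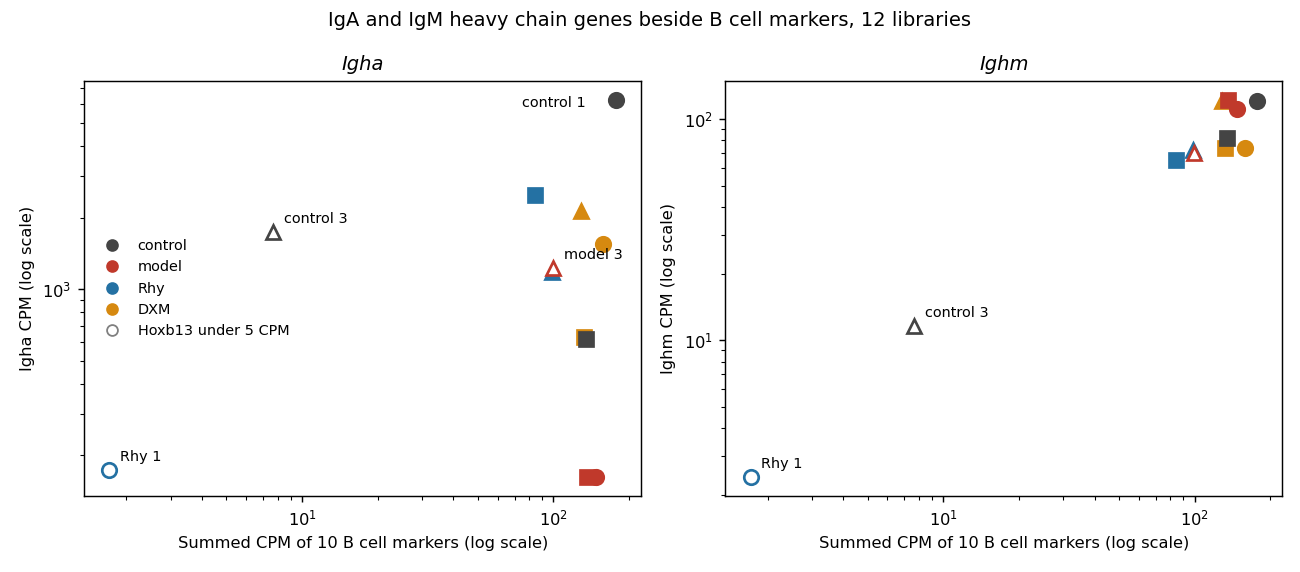
Igha (left) and Ighm (right) level in CPM against the summed CPM of 10 B cell markers, both on log scales, with 1 point per library coloured by group, and open symbols for libraries with Hoxb13 under 5 CPM. Ighm falls with the B cell markers in control 3 and Rhy 1, whereas Igha is low in Rhy 1, model 1 and model 2 but stands at 1741 CPM in control 3.

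Tnfrsf17 encodes BCMA, the receptor through which plasma cells receive survival signals from the cytokines APRIL and BAFF. It measured 4.87, 0.834 and 1.21 CPM in control, 0.221, 0.0607 and 0.715 CPM across model libraries, 0.342, 0.784 and 0.849 CPM across Rhy libraries and 0.754, 0.627 and 2.43 CPM across DXM libraries. Every model library lay below every control library, and Tnfrsf17 was the only one of the 10 genes with this property, as were 6.61% of all genes tested in that direction. The log2 fold change between model and control was -2.76 (SE 0.92, 95% interval -4.77 to -0.75, adjusted p = 0.479 in edgeR). Few reads stand behind it, with 4, 1 and 12 reads in the model libraries and 12 to 65 in control. The value was -1.61 without control 1. With all 9 DSS libraries set against control it was -1.79 (SE 0.65, adjusted p = 0.202), and -0.63 without control 1.

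Mzb1, an ER protein that assists antibody assembly in B cells and plasma cells, measured 45.2, 12.2 and 11.4 CPM in control and 11.7, 11.8 and 18.3 CPM across model libraries. It measured 1.28, 16.3 and 16.0 CPM across Rhy libraries and 11.7, 11.8 and 25.0 CPM across DXM libraries. Control 1 was the highest library and Rhy 1 the lowest, and the other 10 lay between 11.4 and 25.0 CPM. Mzb1 gave a log2 fold change of -0.71 between model and control (SE 0.74, adjusted p = 0.779), and it turned to 0.24 without control 1. Over the 12 libraries its r was 0.69 with Igha and 0.83 with Ighm.

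Derl3, which draws misfolded proteins out of the ER of secretory cells, measured 7.04, 1.60 and 1.92 CPM in control and 1.88, 0.849 and 1.19 CPM across model libraries. It measured 0.428, 2.87 and 2.32 CPM across Rhy libraries and 1.71, 1.54 and 3.49 CPM across DXM libraries. Control 1 and Rhy 1 were again the extremes. For Derl3 the log2 fold change between model and control was -1.42 (SE 0.72, adjusted p = 0.551), and -0.43 without control 1. Its r with Igkc was 0.89 and with Xbp1 -0.22.

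Xbp1, the transcription factor gene itself, did not follow the antibody genes. It measured 65.2, 112 and 208 CPM in control, 145, 147 and 169 CPM across model libraries, 123, 136 and 212 CPM across Rhy libraries and 84.2, 196 and 210.2 CPM across DXM libraries. Control 1, the library highest in Igha, was the lowest in Xbp1. Model against control gave 0.25 on the log2 scale (SE 0.42, adjusted p = 0.873). Epithelial secretory cells such as goblet cells also express Xbp1. Its r was -0.20 with Igha, -0.70 with the mean of the colonocyte markers and 0.40 with the mean of 8 goblet cell markers. Several antibody-side genes had a higher r with the goblet cell markers, at 0.69 for Mzb1, 0.64 for Igkc, 0.62 for Jchain and 0.57 for Igha. The splicing of Xbp1 mRNA, by which the factor is activated, cannot be read from counts per gene.

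The Derl3 promoter is shown because Derl3 is the one gene of the 10 in whose promoter the ER stress response element, to which XBP1 and ATF6 can bind, was found. The 100 bases from 200 to 101 bases before the RefSeq start (GRCm38.p6, chr10:75893198-75893297, plus strand) are given with the element in capitals.
Derl3: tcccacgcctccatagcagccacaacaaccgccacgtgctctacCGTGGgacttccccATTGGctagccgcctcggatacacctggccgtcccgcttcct
The motif searched was CCAAT followed after any 9 bases by CCACG, on either strand, and it lies here on the reverse strand, 156 to 138 bases before the start. It was found in 39 of 32851 promoters of the same length (0.119%), in 1 of the 5 members with a promoter in the RefSeq table, and in 6 of 24 promoters of ER folding genes: Creld2, Dnajc3, Hsp90b1, Hspa5, Pdia6 and Syvn1. Of the other motifs searched, the E-box CACGTG, found in 7.15% of all promoters, lay in those of Derl3 and Pigr, and the ERSE-II, UPRE core and octamer motifs were in no member promoter. A match is a description of the sequence and no evidence of binding in these libraries.

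Pigr encodes the receptor that carries dimeric IgA through the epithelium, and it is made by epithelial cells rather than plasma cells. It measured 2869, 1463 and 2714 CPM in control and 2044, 2007 and 2755 CPM across model libraries. It measured 3389, 2359 and 1855 CPM across Rhy libraries and 1411, 2824 and 2144 CPM across DXM libraries. Rhy 1, one of the libraries lowest in Igha, was the highest in Pigr. Pigr gave a log2 fold change of -0.05 between model and control (SE 0.35, 95% interval -0.82 to 0.72, adjusted p = 0.975), beside the lower fitted values of the 8 colonocyte markers in the same comparison. The part of epithelial content in this value was not tested. The ratio of Pigr to Igha in FPKM was 0.304 to 1.57 in control, 8.37, 8.18 and 1.48 in the model group, 12.9, 0.629 and 1.04 in the Rhy group and 0.606 to 2.97 in the DXM group. The high ratios in model 1 and model 2 came from low Igha, as Pigr in these libraries lay within the control range. In Rhy 1 low Igha and the highest Pigr of the 12 libraries both entered the ratio.

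Between model and control, 0 of the 10 genes passed an adjusted p of 0.05 in edgeR, and neither did any other gene (0% of 16904). DESeq2 on all 12 libraries called 46 genes and on only the 6 libraries compared 167, with 0 of the 10 in either, and limma on FPKM called 0 genes. At an unadjusted p under 0.05, Igha and Tnfrsf17 were lower, 2 of 10 genes, beside 9.62% of all genes in either direction and 4.51% among lower genes. Fitted log2 fold changes below -1 were found for 5 of the 10, Igha, Igkc, Jchain, Tnfrsf17 and Derl3, beside 4.64% of all genes. The median over the 10 was -1.06, beside 0.01 over all genes, and it was -0.25 without control 1. With model 1 and model 2 summed as 1 library, Igha gave -2.04. There 1 of the 10 had an unadjusted p under 0.05, beside 866 of 17346 genes. With control 3, model 3 and Rhy 1 left out, a choice made after the data were seen, the median was -1.81. In this setting 6 of the 10 had an unadjusted p under 0.05, beside 2686 of all 17253 genes tested, again with 0 passing the adjustment. The model group then consisted of the near-identical pair, which makes such p-values too small.

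**Figure D4:**
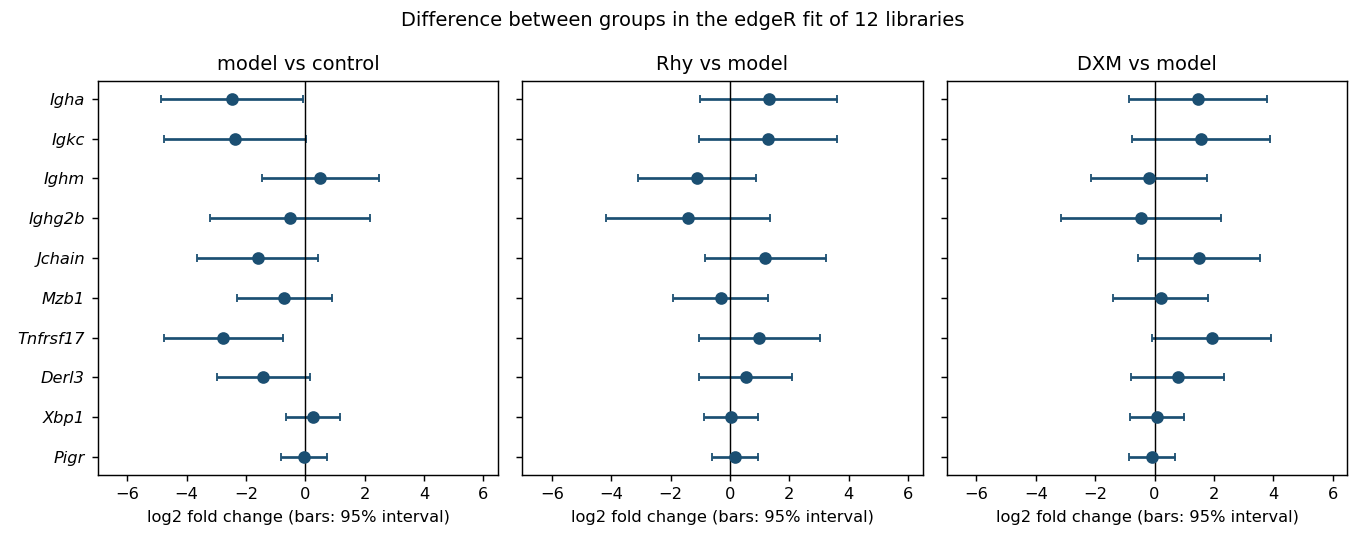
Fitted log2 fold change of each gene with its 95% interval in model against control, Rhy against model and DXM against model. Igha and Tnfrsf17 in model against control are the 2 values whose interval leaves out 0, with adjusted p of 0.516 and 0.479. The intervals count the near-identical model 1 and model 2 as 2 libraries.

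Between Rhy and model the log2 fold change was 1.30 for Igha (SE 1.06), 1.28 for Igkc (SE 1.06) and 1.19 for Jchain (SE 0.93). It was -1.11 for Ighm (SE 0.91) and -1.42 for Ighg2b (SE 1.26). Tnfrsf17 gave 0.99 (SE 0.93), Derl3 0.53 (SE 0.72), Mzb1 -0.31 (SE 0.74), Xbp1 0.03 (SE 0.42) and Pigr 0.16 (SE 0.35). Higher fitted values were given by 7 of the 10, with log2 fold changes above 1 for 3 of them, Igha, Igkc and Jchain (3.18% of all genes), and below -1 for 2, Ighm and Ighg2b (3.83% of all genes). With edgeR, 0 of the 10 passed the adjusted threshold (0% of all genes) and 0 had an unadjusted p under 0.05 (3.72% of all genes), with an adjusted p of 0.9997 for each. Rhy 1 lay at the bottom of the group for all but Pigr. Igha gave 0.39 without Rhy 2 and 3.01 without model 3, and Igkc 0.32 and 2.39. Jchain gave 0.64 without Rhy 2 and 2.95 without model 3. Ighm gave -0.55 without Rhy 1. Ighg2b gave -0.86 without Rhy 1, -0.58 without model 3 and -0.018 with the 3 libraries low in Hoxb13 left out. All 10 B cell markers had lower fitted values in Rhy than in model (median log2 fold change -1.06, 0 at an unadjusted p under 0.05), and their part in the Ighm and Ighg2b values was not tested.

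Between DXM and model the log2 fold change was 1.47 for Igha (SE 1.07), 1.57 for Igkc (SE 1.07), 1.5 for Jchain (SE 0.94) and 1.92 for Tnfrsf17 (SE 0.91), the 4 of the 10 above 1 (6.06% of all genes). The adjusted p of Tnfrsf17, the smallest of the 10, was 0.655. Derl3 gave 0.78 (SE 0.72), Mzb1 0.21 (SE 0.73), Xbp1 0.09 (SE 0.42), Pigr -0.09 (SE 0.35), Ighm -0.18 (SE 0.90) and Ighg2b -0.45 (SE 1.24). In edgeR 0 of the 10 passed the adjusted threshold (0% of all genes) or an unadjusted p of 0.05 (7.69% of all genes). Igha gave 3.16 without model 3 and 1.07 without DXM 3. Without DXM 3, Jchain gave 0.75, Tnfrsf17 1.04, Igkc 0.96 and Derl3 0.31. The comparisons of Rhy and of DXM share the model libraries, so their values are not independent of each other or of the model against control.

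Set against control, Igha differed by -1.17 on the log2 scale in the Rhy libraries (SE 1.06, adjusted p = 0.685) and by -1.0 in the DXM libraries (SE 1.05, adjusted p = 0.638). Both turned sign without control 1, to 0.12 and 0.28. Over all 9 DSS libraries it was -1.55 (SE 0.79, adjusted p = 0.339), and -0.26 without control 1. In edgeR 0 of the 10 genes passed in any of these 3 comparisons (0% of all genes in each). At an unadjusted p under 0.05 the count was 0 in Rhy against control (11.6% of all genes), 0 in DXM against control (18.9%) and 1, Tnfrsf17, over all DSS libraries (17.0%). Log2 fold changes below -1 were given by 5 of the 10 in Rhy against control (5.12% of all genes), 1 in DXM against control (5.91%) and 4 over all DSS libraries (3.92%). DESeq2 called 746 of all genes over all DSS libraries, and 0 of the 10.

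Across the 12 libraries the 10 genes fell into partly overlapping sets by their correlation in log2 CPM. This is a description of libraries that differ in Hoxb13 level and total count and include the near-identical pair. Igha had r = 0.97 with Igkc, 0.96 with Jchain, 0.90 with Tnfrsf17 and 0.81 with Derl3. Ighm had r = 0.91 with Ighg2b and 0.26 with Igha. Mzb1 stood between these sets, with r = 0.91 with Ighg2b, 0.83 with Ighm, 0.83 with Igkc and 0.69 with Igha. Ighg2b had r = 0.63 with Igkc. Pigr had r = 0.04 with Igha and -0.52 with Ighm. Igha, Igkc, Jchain and Tnfrsf17 thus had their highest and lowest libraries largely in common.

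The genes most like the mean of Igha, Igkc, Jchain, Mzb1, Tnfrsf17 and Derl3 over the 12 libraries were Cd300c2 (r = 0.97), Mpeg1 (0.94), Pla2g7 (0.91), P2rx1 (0.90), Dnaic1 (0.90), Gm15421 (0.90), Csf1r (0.90), C1qa (0.89), Ccr10 (0.89) and Lst1 (0.89). Mpeg1, Csf1r and C1qa are known as macrophage genes, and Ccr10 is a homing receptor of IgA plasma cells. Antibody variable segments, counted apart, made up 10 of the 100 most alike genes, of 90 segments tested. The genes most like Pigr were Isl2 (r = 0.93), Ppif (0.88), Colec10 (0.88), Prss8 (0.88) and Diras2 (0.86). All 6 macrophage markers had lower fitted values in model than in control (median log2 fold change -0.73, 0 past the adjusted threshold and 2 at an unadjusted p under 0.05, beside 4.51% of all genes lower). All 6 had higher fitted values in Rhy than in model (median 0.40). Of them 1 was higher at an unadjusted p under 0.05, beside 294 of 16904 genes. All 6 were also higher in DXM than in model (median 1.18), 3 at an unadjusted p under 0.05, beside 827 of 16904 genes higher. In both comparisons 0 passed the adjusted threshold. The 6 markers summed to 68.6 to 178 CPM in control and 61.6 to 69.5 CPM across model libraries. Their sum was 24.7 to 128 CPM across Rhy libraries and 76.0 to 195 CPM across DXM libraries. Rhy 1 was the lowest library in macrophage markers as in Igkc. Their part in the antibody gene differences was not tested.

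The other antibody constant genes gave 0 of 7 genes past the adjusted threshold in model against control, with a median log2 fold change of -0.47. In Rhy against model 5 of the 7 had lower fitted values (median -0.57). In DXM against model 6 of the 7 had higher ones (median 0.59), with 0 past the adjusted threshold in either. Ighe and Iglc4 did not pass the filter. Iglc1, a lambda light chain gene, measured 7.61, 10.6 and 18.7 CPM across model libraries and 59.0, 11.8 and 141 CPM across DXM libraries, a log2 fold change of 2.52 (SE 0.94, adjusted p = 0.637). The groups overlapped in DXM 2. Ighg2c measured 1.2, 1.58 and 20.4 CPM across model libraries and 0.856, 0.0653 and 1.41 CPM across Rhy libraries. The fitted log2 difference of -3.28 (SE 1.34, adjusted p = 0.9997) was -0.76 without model 3, which alone held most of its reads.

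Of 14 plasma cell factors and surface proteins, 0 passed the adjusted threshold in model against control, and the median log2 fold change was -0.03. In Rhy against model 10 of the 14 had lower fitted values (median -0.59), beside 8739 of 16904 genes. In Rhy against control 13 of the 14 did (median -0.59), beside 8840 of 16904 genes. In DXM against model 8 of the 14 were lower (median -0.03). Again 0 passed the adjusted threshold in each. Prdm1 encodes Blimp-1, the factor that drives B cells into plasma cells, and it is also expressed in other cells of the gut. It measured 10.6, 24.3 and 10.9 CPM in control, 7.72, 5.28 and 5.72 CPM across model libraries, 6.34, 9.40 and 7.07 CPM across Rhy libraries and 8.37, 4.82 and 5.06 CPM across DXM libraries. All 9 DSS libraries lay below all 3 control libraries, as did 1.33% of all genes tested. The log2 fold change over all DSS libraries was -1.21 (SE 0.28, adjusted p = 0.139 in edgeR), and -0.70 without control 2, its highest library. DESeq2, which called 746 genes in this comparison, gave an adjusted p of 0.00849. Slamf7, a surface protein of plasma cells and other lymphocytes, measured 0.882, 1.64 and 1.49 CPM across model libraries and 0, 0.261 and 0.736 CPM across Rhy libraries (log2 fold change -1.90, SE 0.74, adjusted p = 0.9997). These groups did not overlap, as for 6.02% of all genes in that direction. All 6 T cell markers also had lower fitted values in Rhy than in model (median log2 fold change -0.83, 0 past the adjusted threshold). Of them 1 had an unadjusted p under 0.05, beside 3.72% of all genes in either direction. The part of T cell content in the Slamf7 value was not tested. Eaf2 gave -1.06 over all DSS libraries (SE 0.49, adjusted p = 0.292) and turned to 0.24 without control 1.

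Among the signals for IgA switching, plasma cell survival and homing, 11 of 15 genes passed the filter, and 0 passed the adjusted threshold in any comparison in edgeR. Il5, Il6, Il10 and Il21 did not pass the filter. Tnfsf13b, which encodes the survival cytokine BAFF, measured 14.2, 15.4 and 8.78 CPM in control and 7.06, 5.52 and 9.95 CPM across model libraries (log2 fold change -0.77, SE 0.33, adjusted p = 0.502). The DXM group gave 16.7, 8.97 and 11.5 CPM, a log2 fold change of 0.72 against model (SE 0.33, adjusted p = 0.646). Cxcl12, a chemokine of the plasma cell niche, measured 19.4, 20.2 and 42.7 CPM across model libraries and 82.6, 58.2 and 99.4 CPM across DXM libraries. These groups did not overlap, as for 10.4% of all genes in that direction, and the log2 fold change was 1.55 (SE 0.47, adjusted p = 0.622 in edgeR). DESeq2 gave Cxcl12 an adjusted p of 0.165 on all 12 libraries, where it called 51 genes, and of 0.00167 on only those 6, where it called 589. The 6 smooth muscle markers, from other cells of the colon wall, summed to 3519 to 4583 CPM across model libraries and 4877 to 8811 CPM across DXM libraries. All 6 had higher fitted values in DXM than in model (median log2 fold change 0.68, 0 past the adjusted threshold). Of them 2 had an unadjusted p under 0.05, beside 7.69% of all genes in either direction. The part of smooth muscle content in the Cxcl12 value was not tested. Ccl25, a chemokine that draws lymphocytes into the gut, reached 40.1 CPM in Rhy 3 and was 3.73 to 8.16 CPM elsewhere, and its log2 fold change of 1.60 against model turned to -0.18 without Rhy 3.

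The 30 ER folding, translocation and quality control genes, many of them XBP1 targets, all passed the filter, and 0 passed the adjusted threshold in any comparison in edgeR. Over all DSS libraries against control their median log2 fold change was 0.17, beside -0.86 for the 10 genes and 0.01 for all genes. The median of the 10 genes rests on control 1: without it, it was 0.067, beside 0.066 for all genes. Of the 30, 6 were higher and 1 was lower at an unadjusted p under 0.05, beside 7.86% of all genes higher and 9.19% lower. Prdx4, an ER peroxidase, measured 13, 17.5 and 18.1 CPM in control, 28.0, 29.2 and 30.1 CPM across model libraries, 23.4, 43.3 and 44.3 CPM across Rhy libraries and 28.3, 45.3 and 53.5 CPM across DXM libraries. All 9 DSS libraries lay above all 3 controls, as did 1.95% of all genes, with a log2 fold change of 1.14 (SE 0.24, adjusted p = 0.137 in edgeR). DESeq2, which called 746 genes in this comparison, gave Prdx4 an adjusted p of 0.00469. The chaperone gene Hspa5 gave 0.94 (SE 0.43, adjusted p = 0.292) and Manf, a secreted ER stress protein, 0.75 (SE 0.31, adjusted p = 0.252). Edem1, which sends misfolded glycoproteins to degradation, gave -0.61 (SE 0.15, adjusted p = 0.139 in edgeR and 0.0147 in DESeq2). Against model, Syvn1 gave -0.37 in the Rhy group (SE 0.16, adjusted p = 0.9997) and Dnajb11 -0.40 in the DXM group (SE 0.18, adjusted p = 0.646). The summed goblet cell markers, from cells that also use this machinery, were 1607 to 11348 CPM in control and 1419 to 13154 CPM in the DSS groups, and their part in these values was not tested.

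**Figure D5:**
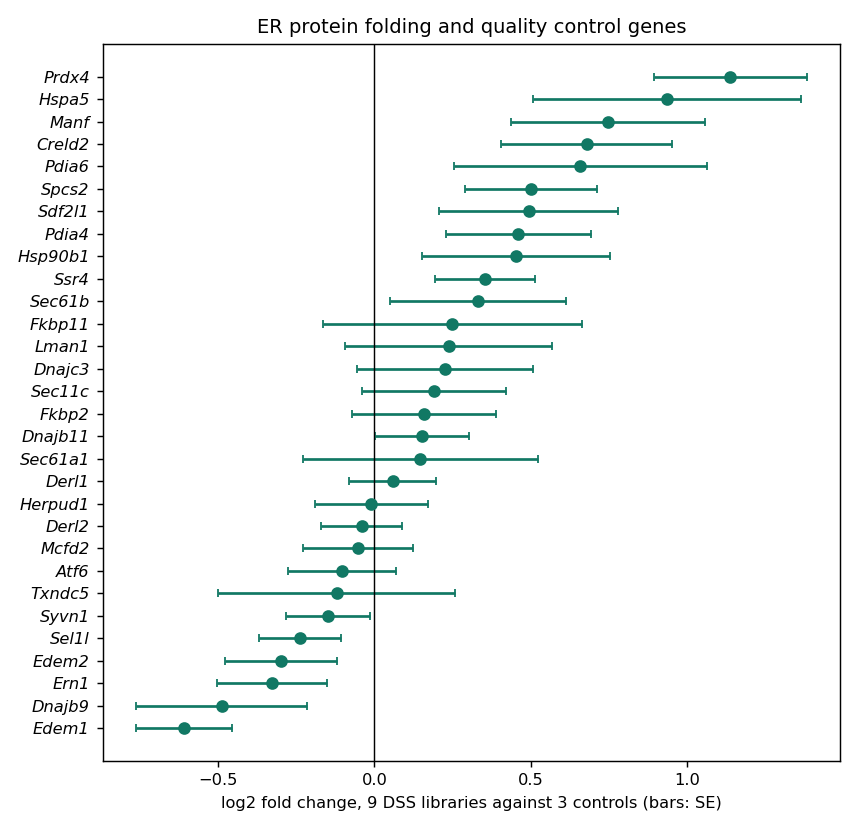
Fitted log2 fold change (points) with its SE (bars) of the 30 ER folding and quality control genes in the 9 DSS libraries against the 3 controls. Prdx4 at 1.14 and Edem1 at -0.61 are the ends of the order, and 19 of the 30 lie above 0.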

How the data were processed

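RNA-Seq counts and FPKM values deposited by the authors for 12 colon libraries were used. The submitters' processing notes name HISAT2 2.0.5, featureCounts 1.5.0-p3, DESeq2 1.16.1 and mm10, and the strand setting and annotation release are not given in the sources used here. The deposited counts are whole reads per gene without normalization. The deposited FPKM values equal these counts divided by gene length and DESeq2 size factor, for 100% of 262985 values. Coordinates matched GENCODE M21 for 98.3% of gene identifiers and for 9 of the 10 members.

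Groups were taken from the treatment labels. Tests were run with edgeR 4.0.16 under R 4.3.3 (TMM, filterByExpr with a minimum count of 10, quasi-likelihood test, two-sided, 12 libraries in 1 fit, Benjamini-Hochberg over 16904 genes). Log2 CPM used a prior count of 2. DESeq2 1.42.0, limma 3.58.1 on log2(FPKM + 1) and log2(FPKM + 0.1), other scalings, no filter, only the groups compared, a replicate block, model 1 and 2 summed, and each library left out were alternatives. Leaving out the 3 libraries low in Hoxb13 was added after the data were seen. The code was tested on simulated counts.

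The members and gene lists were chosen with earlier results of these data known. All members are named, and from each further pathway list, among the 3 largest rises and falls per comparison, those with an unadjusted p under 0.05. Likeness was ranked by Pearson r, for the 10 and 5 genes highest.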

Additional observations from a re-analysis of the deposited data

How the results depend on the processing

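The 34 fold changes of the 10 genes were recomputed under 812 combinations of value and setting: 781 kept the sign, 31 turned it, and 0 reached an adjusted p under 0.05. The number of the 10 called was 0 under every setting of all 6 comparisons. To look for pairing, the mean log2 CPM of its group was subtracted from each library, gene by gene. The remaining differences were correlated between libraries of different groups. Correlations were -0.31 to 0.36 for the same replicate number and -0.41 to 0.40 for different numbers. No pairing was seen, but with 3 libraries per group this check cannot exclude one. With a replicate block, 0 of the 10 were called in each comparison, and the log2 fold change of Xbp1 turned to -0.032 in Rhy against model and -0.021 in DXM against model. In limma on log2(FPKM + 1) and log2(FPKM + 0.1), Ighg2b turned to 0.36 and 0.54 in model against control, and Xbp1 to -0.0017 and -0.0043 in DXM against model. With model 1 and model 2 summed, Pigr turned to 0.027 in model against control and Xbp1 to -0.0021 in Rhy against model. Without the libraries low in Hoxb13, Mzb1 turned to 0.48 in Rhy against model, and Ighg2b to 0.38 and Pigr to 0.086 in DXM against model. The cause was not tested. Upper-quartile scaling moved the median of all genes in DXM against control to 0.15 on the log2 scale.

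With 1 library left out at a time, values that turned sign ranged as follows. In model against control they were -0.031 to 1.11 for Ighm, -1.37 to 1.5 for Ighg2b, -0.30 to 0.12 for Pigr, -1.06 to 0.24 for Mzb1 and -0.064 to 0.76 for Xbp1. In Rhy against model they were -0.11 to 0.35 for Pigr, -0.67 to 0.21 for Mzb1, -0.24 to 0.18 for Xbp1 and -0.18 to 2.05 for Ccl25. In DXM against model they were -1.32 to 0.38 for Ighg2b, -0.35 to 0.13 for Pigr, -0.25 to 0.47 for Mzb1 and -0.13 to 0.41 for Xbp1. Igha ranged from -2.08 to 0.12 in Rhy against control and from -1.48 to 0.28 in DXM against control, and Eaf2 from -1.5 to 0.24 over all DSS libraries. Control 1 carries the highest Igha, Igkc, Mzb1, Tnfrsf17 and Derl3 of all libraries, and 3 libraries per group limit what these comparisons can resolve.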
